A study of Mus musculus with 4 samples.

Results

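The genes described here are 50 genes of the mouse cell cycle and of mitosis, followed across 4 arrays of microglial cells, the resident macrophages of the brain. They were taken by name: a gene entered when a probe set of the array carried its symbol and no other, and where several did, the one that read highest on average over the 4 arrays stood for the gene. A value was found for 49 of the 50, out of 19938 genes named in this way; Ccnb1, which encodes cyclin B1, had no such probe set and was not analysed here. RNA was read on Affymetrix Mouse Gene 1.0 ST arrays, which place many probes along each transcript. The 4 groups were cells labelled Bid-/- given lipopolysaccharide (LPS, a bacterial cell wall component) for 3 h, cells labelled Bid-/- with no agent, wild-type (WT) C57Bl cells given LPS for 3 h, and WT C57Bl cells with no agent. Bid is a BH3-only protein that carries death receptor signals to mitochondria. Each group was 1 array, and the design text states that there was no replication. The sources used here do not give the strain of the Bid-/- cells, how the cells were grown, the LPS dose, or the age and sex of the animals.

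Cells divide in an ordered cycle. D-type cyclins bind CDK4 or CDK6 and free E2F factors from the retinoblastoma protein, E2F factors drive the genes of DNA synthesis, MCM helicases are loaded on origins of replication by CDC6 and CDT1, and CDK1 with cyclin B takes the cell into mitosis, where kinesins, Aurora and Polo kinases and the spindle checkpoint separate the chromosomes. Most mitotic genes are transcribed late in the cycle through promoter elements called CHR and CCAAT, and are near silent in resting cells. Microglia renew slowly in the adult brain and divide after injury or in culture under CSF1 receptor signalling. In macrophages grown with CSF1, LPS is known to block entry into S phase and the induction of cyclin D1.

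All values below are the deposited expression values, read as log2, and all differences are on that log2 scale. Bid itself read 5.97 with LPS and 5.53 without on the arrays labelled Bid-/-, against 5.02 with LPS and 5.69 without in WT, so that with LPS its single probe set was higher by 0.95 on the array labelled Bid-/-. This goes against the label, and the sources used here do not place the probes relative to the deletion. Every direction between genotypes therefore rests on the labels. The 10 microglia and macrophage markers all reached the floor given below on at least 1 array and averaged 8.57 with LPS and 9.00 without on the arrays labelled Bid-/-, and 8.75 with LPS and 8.99 without in WT. P2ry12, a purine receptor that defines resting microglia, was near the floor, at 3.90 and 4.38 on the arrays labelled Bid-/- and 3.91 and 4.33 in WT (LPS, then control). Neuronal markers were below the floor on all arrays (0 of 5 reached it). On at least 1 array, 5 of 7 astrocyte, 5 of 7 oligodendrocyte lineage and 4 of 5 endothelial markers reached it. The means of these lists were 4.08 to 4.54 over the arrays. Fibroblast and mural cell markers averaged 5.84 with LPS and 5.95 without on the arrays labelled Bid-/-, against 6.02 with LPS and 5.15 without in WT, so the WT control array was the low one.

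Genes were compared only where at least 1 of the arrays in question read 4.26 or more; this floor is the median probe set's mean over the 4 arrays. Of the 49 measured cell cycle genes, 32 reached it on at least 1 array and 17 stayed below it on all 4. Over all genes, 11326 of 19938 reached it on at least 1 array. In the group for DNA replication, nucleotide supply and E2f1, 13 of 14 genes passed, and in the group for G1 and S phase cyclins and their kinases and inhibitors, 8 of 10 passed. In the group for entry into and exit from mitosis, 8 of 13 measured genes passed, and in the group for the spindle, kinetochore, checkpoint and cytokinesis, 3 of 12 passed. The genes below the floor on every array were the cyclins Ccna2, Ccnb2 and Ccne2, the checkpoint kinases Bub1, Bub1b and Ttk, the phosphatase Cdc25c, the chromosomal passenger protein Birc5, the kinesins Kif11, Kif23 and Cenpe, the spindle and midzone proteins Nusap1 and Prc1, the kinetochore protein Cenpf, the mitotic transcription factor Foxm1, the origin loader Cdc6 and the CDK inhibitor Cdkn2c. Their values do not show absence, since the background of each probe set was not measured here.

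**Figure D1:**
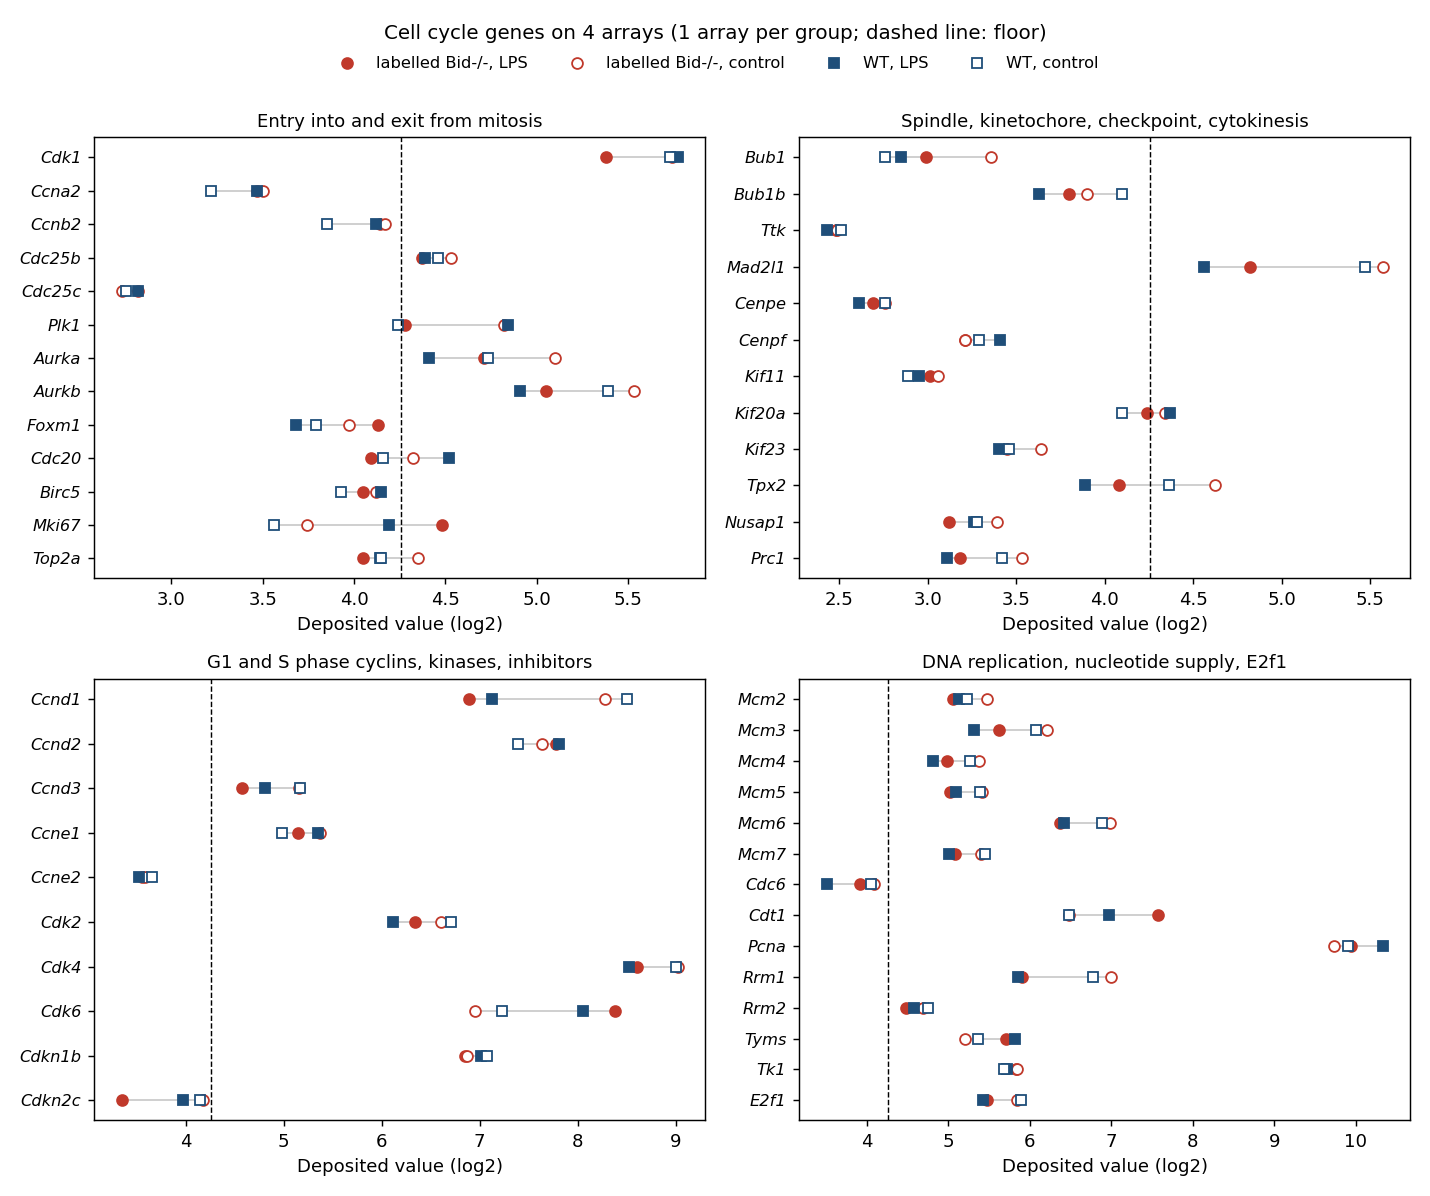
Deposited log2 values of the 49 measured cell cycle genes on 4 arrays, 1 per group, in 4 panels by role; filled symbols are LPS arrays, open symbols control arrays, circles the arrays labelled Bid-/- and squares WT, and the dashed line is the floor of 4.26. On at least 1 array, 8 of 13 genes of mitotic entry and exit, 3 of 12 spindle genes and 13 of 14 genes of replication reach the floor.

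Promoter windows from RefSeq (assembly GRCm38.p6, 250 bases before to 50 bases after the start) were found for 40 of the 50 genes, as 44 windows. They were searched on both strands for TTTGAA (a spelling of the CHR), CCAAT, and 4 E2F site spellings, TTTGGCGC, TTTCGCGC, TTTCCCGC and TTTGCCGC. TTTGAA was in 7 of 10 windows of the mitosis entry and exit group (70.0%), 7 of 11 of the spindle group (63.6%), 1 of 14 of the replication group (7.14%) and 0 of 9 of the G1 and S phase group, against 17.9% of all 32851 windows. CCAAT was in 90.0% of windows of the mitosis entry and exit group, 81.8% of the spindle group, 64.3% of the replication group and 44.4% of the G1 and S phase group, against 37.4% of all windows. Any E2F spelling was in 6 of 14 replication windows (42.9%), against 2.26% of all windows. A match is a description of the letters, not a site. Windows of 5 genes described below are shown because they carry these elements: Mcm3 (chr1:20820263-20820562, minus strand) and Mcm6 (chr1:128359656-128359955, minus strand) were lower with LPS under both labels, Cdt1 (chr8:122567765-122568064, plus strand) was higher, and Plk1 (chr7:122159185-122159484, plus strand) and Cdc20 (chr4:118437294-118437593, minus strand) moved in opposite directions under the labels. Each is given 5′ to 3′ along its gene, with every match to a searched motif, on either strand, in capitals; in Mcm6 a TTTGGCGC and a reverse-strand TTTCGCGC overlap.
Mcm3: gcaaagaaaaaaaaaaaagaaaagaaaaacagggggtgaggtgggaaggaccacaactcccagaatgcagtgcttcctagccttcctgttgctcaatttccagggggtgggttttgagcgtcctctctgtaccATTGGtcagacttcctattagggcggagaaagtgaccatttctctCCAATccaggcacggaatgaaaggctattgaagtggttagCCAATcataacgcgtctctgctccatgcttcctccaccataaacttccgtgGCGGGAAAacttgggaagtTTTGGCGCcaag
Mcm6: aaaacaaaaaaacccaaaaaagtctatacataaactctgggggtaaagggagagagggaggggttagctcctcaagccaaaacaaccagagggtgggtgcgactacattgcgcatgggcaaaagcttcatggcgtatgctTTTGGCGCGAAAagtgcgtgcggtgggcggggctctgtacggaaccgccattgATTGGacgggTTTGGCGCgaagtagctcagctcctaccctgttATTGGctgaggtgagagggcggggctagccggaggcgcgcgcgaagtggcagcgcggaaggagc
Cdt1: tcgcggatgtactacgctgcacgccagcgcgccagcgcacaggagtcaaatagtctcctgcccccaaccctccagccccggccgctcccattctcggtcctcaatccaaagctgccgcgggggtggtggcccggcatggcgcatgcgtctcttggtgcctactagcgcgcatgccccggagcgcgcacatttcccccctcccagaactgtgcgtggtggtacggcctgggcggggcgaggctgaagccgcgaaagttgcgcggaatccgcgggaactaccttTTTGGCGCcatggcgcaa
Plk1: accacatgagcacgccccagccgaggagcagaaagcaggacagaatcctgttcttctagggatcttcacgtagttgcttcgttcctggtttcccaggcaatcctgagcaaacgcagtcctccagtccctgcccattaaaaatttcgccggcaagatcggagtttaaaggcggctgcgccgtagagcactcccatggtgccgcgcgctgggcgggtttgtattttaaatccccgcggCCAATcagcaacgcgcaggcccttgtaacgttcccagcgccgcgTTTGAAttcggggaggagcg
Cdc20: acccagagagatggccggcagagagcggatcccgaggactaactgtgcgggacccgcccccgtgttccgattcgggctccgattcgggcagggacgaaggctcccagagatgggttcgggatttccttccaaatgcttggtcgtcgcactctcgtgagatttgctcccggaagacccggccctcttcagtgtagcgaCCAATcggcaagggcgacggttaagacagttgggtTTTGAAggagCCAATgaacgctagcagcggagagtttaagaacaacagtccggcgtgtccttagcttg

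The first question was how cell cycle genes responded to 3 h of LPS. In an additive fit over both labels, 3 of them fell: the G1 cyclin Ccnd1, the ribonucleotide reductase subunit Rrm1 and the spindle checkpoint gene Mad2l1. More members were lower than higher, mostly by small amounts, with replication genes such as Mcm3 and Mcm6 among the lower ones and Cdk6, Cdt1 and Tyms higher under both labels. On the arrays labelled Bid-/-, 26 of the 32 tested genes were lower with LPS and 6 higher, with a median of -0.34, against -0.10 over all genes tested. Of all genes tested there, 6607 of 10995 were lower. In WT, 19 of 30 cell cycle genes were lower and 11 higher, with a median of -0.23, against -0.05 over all genes. Of all genes tested in WT, 6086 of 11129 were lower. Over the 49 measured genes with no floor, the medians were -0.22 under the Bid-/- label and -0.08 in WT. Counted over both labels, 20 of 32 were lower in both, 6 higher in both and 6 neither, against 4767, 3003 and 3556 of 11326 genes. In bulk RNA, fewer cells in cycle and less RNA per cell cannot be told apart.

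At least 1.5-fold differences were seen in few members. On the arrays labelled Bid-/-, 5 of 32 were lower by this rule (15.6%, against 10.4% of all genes tested): Ccnd1, Mcm3, Mcm6, Rrm1 and Mad2l1. On the same arrays 3 were higher (9.38%, against 6.88%): Cdk6, Cdt1 and Mki67, the last of which passed the floor only on the LPS array. In WT, 5 of 30 were lower (16.7%, against 11.1%): Ccnd1, Cdk2, Mcm3, Rrm1 and Mad2l1. The 2 higher ones in WT were Cdk6 and Plk1 (6.67%, against 5.8%). After quantile normalization 3 rather than 5 members were lower under the Bid-/- label. These shares lie near those of all genes, and no p-value goes with them, since no group was replicated.

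**Figure D2:**
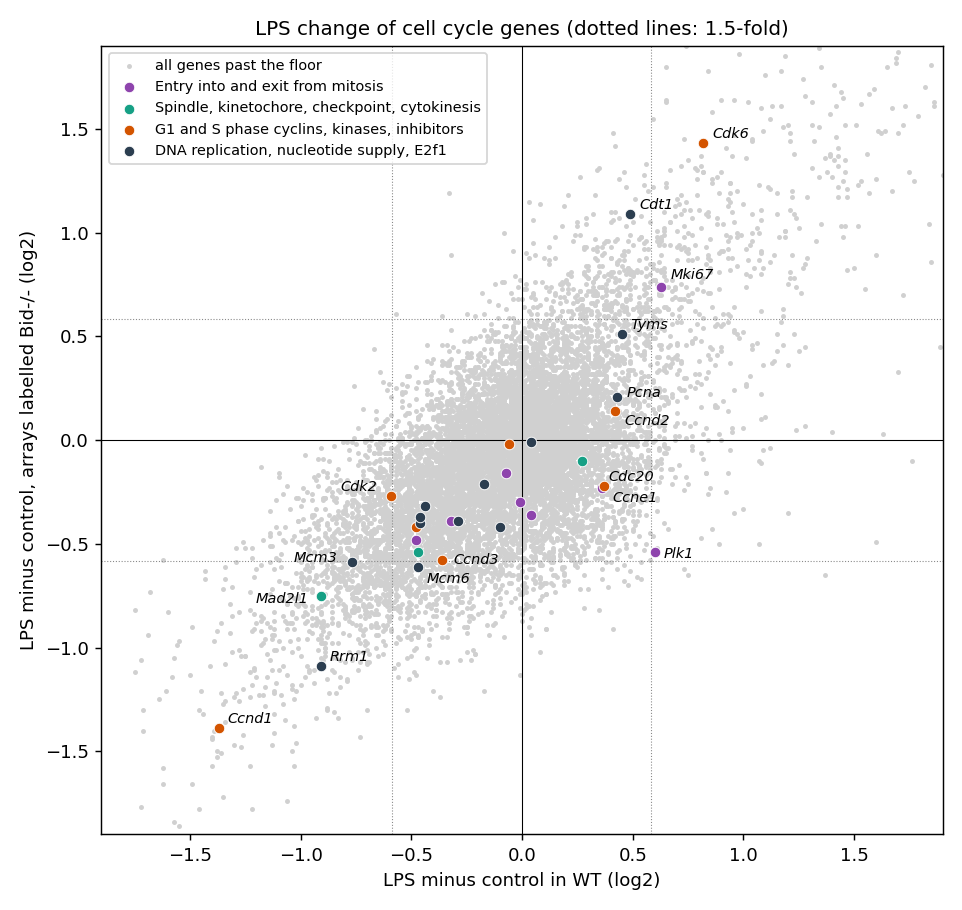
LPS minus control on the log2 scale for WT (horizontal) and for arrays labelled Bid-/- (vertical); coloured points are the 32 cell cycle genes past the floor, by role, grey points are all genes past the floor (those beyond the axes are not drawn), and dotted lines mark 1.5-fold. Ccnd1, Rrm1, Mad2l1 and Mcm3 sit at the lower left, Cdk6 and Cdt1 at the upper right, and Plk1 at the lower right.

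The additive fit was limma on all 11326 genes, log2 value on genotype label and LPS, with Benjamini-Hochberg adjustment. Part of a gene's error comes from the difference between the 2 labels' LPS changes, so a gene whose change differs between them is penalised. The rest comes from a spread shared across genes of similar intensity. By this fit, 3 of 32 cell cycle genes passed a limma adjusted p of 0.05 as lower with LPS (9.38%, against 1.56% of all genes). As higher, 0 passed (0.0%, against 1.68%). At an unadjusted p under 0.05 the fit gave 15 lower and 4 higher, 19 of 32 genes, beside 28.8% of all genes. Seeded noise within the rounding of the values brought the calls to 7 lower and 4 higher, other scalings of the arrays gave 6 to 8 lower and 4 higher, and with no floor there were 0 of either. Of the genes not called as reported, Cdk6 and Mcm3 passed in 5 of 8 alternatives, Cdt1 and Tyms in 4 of 8, Aurkb in 3 of 8 and Mcm4 in 1 of 8. Mki67, Ccnd3 and Tpx2 passed in 4 of the 7 alternatives that tested them.

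Among the genes of G1 and of entry into S phase, cyclin D1 showed the largest fall of the members tested. Ccnd1, which encodes the cyclin that couples growth factor signals to CDK4 and CDK6, read 6.89 with LPS and 8.28 without on the arrays labelled Bid-/-, against 7.13 with LPS and 8.50 without in WT. Both LPS arrays were below both control arrays, by 1.39 under the Bid-/- label and by 1.37 in WT. In the additive fit it fell by 1.38 (SE 0.14, limma adjusted p = 0.0367), a 2.60-fold difference. The call held in 7 of 8 alternatives, all but the one with no floor.

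Neither catalytic partner of the D-type cyclins passed the test. Cdk6 read 8.38 with LPS and 6.95 without on the arrays labelled Bid-/-, against 8.05 with LPS and 7.23 without in WT. Both LPS arrays were above both control arrays, with differences of 1.43 under the Bid-/- label and 0.82 in WT. The fit gave a mean LPS difference of 1.13 with SE 0.21, and limma's adjusted p was 0.0684. Cdk4 read 8.60 and 9.02 on the arrays labelled Bid-/- (LPS, then control), against 8.52 and 9.00 in WT. Both LPS arrays were the lower ones, by 0.42 and 0.48, and the limma adjusted p was 0.142.

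The other D-type cyclins did not pass the test. Ccnd3 read 4.58 with LPS and 5.16 without on the arrays labelled Bid-/-, against 4.81 with LPS and 5.17 without in WT, and both LPS arrays were the lower ones (limma adjusted p = 0.0943). Ccnd2 read 7.78 and 7.64 under the Bid-/- label and 7.81 and 7.39 in WT (LPS, then control). Its LPS arrays were the higher ones, by 0.14 and 0.42, with a limma adjusted p of 0.330. Cdk2, the kinase of cyclins E and A, read 6.34 with LPS and 6.61 without on the arrays labelled Bid-/-, against 6.12 with LPS and 6.71 without in WT. Only the WT difference, -0.59, reached 1.5-fold. The limma adjusted p for Cdk2 was 0.158. Cdkn1b, the CDK inhibitor p27, read 6.85 and 6.87 on the arrays labelled Bid-/- against 7.01 and 7.07 in WT (LPS, then control). Its LPS differences of -0.02 and -0.06 were small, and a second probe set read 0.31 higher with LPS under the Bid-/- label and 0.06 higher in WT.

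Genes of DNA replication and nucleotide supply were mostly lower with LPS, with named exceptions. The median difference of the 13 tested genes was -0.37 on the arrays labelled Bid-/- (10 of 13 below 0) and -0.29 in WT (9 of 13 below 0). Over all genes tested, 6607 of 10995 were below 0 under the Bid-/- label and 6086 of 11129 in WT. Rrm1, the large subunit of ribonucleotide reductase, which makes deoxynucleotides, read 5.91 with LPS and 7.00 without on the arrays labelled Bid-/-, against 5.86 with LPS and 6.77 without in WT. Both LPS arrays lay well below both control arrays. Rrm1 fell by 1.00 in the additive fit (SE 0.13, limma adjusted p = 0.0481), and the call held in 6 of 8 alternatives, all but the fits with no floor and with no intensity trend in eBayes. The small subunit, Rrm2, ran from 4.48 to 4.75 over the 4 arrays, with LPS differences of -0.21 under the Bid-/- label and -0.17 in WT.

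All 6 subunits of the MCM2-7 helicase, which unwinds DNA at the fork, were lower with LPS under both labels, and none passed the test. Mcm3 read 5.62 with LPS and 6.21 without on the arrays labelled Bid-/-, against 5.31 with LPS and 6.08 without in WT. Its differences were -0.59 and -0.77 (limma adjusted p = 0.0635). Mcm6 read 6.37 with LPS and 6.98 without on the arrays labelled Bid-/-, against 6.42 with LPS and 6.89 without in WT. For Mcm6 the differences were -0.61 and -0.47 (limma adjusted p = 0.0965). In both genes the LPS arrays were the lower pair, and both promoter windows printed above hold TTTGGCGC. The windows of Mcm2 and Rrm1, also lower with LPS under both labels, held none of the E2F spellings. A link of these spellings to the LPS change was not tested. The other 4 subunits, Mcm2, Mcm4, Mcm5 and Mcm7, had LPS differences between -0.42 and -0.32 on the arrays labelled Bid-/- and between -0.46 and -0.10 in WT. E2f1, the activator of many of these genes, read 5.47 and 5.84 on the arrays labelled Bid-/- (LPS, then control) and 5.43 and 5.89 in WT, with both LPS arrays lower (limma adjusted p = 0.109).

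The licensing factor Cdt1, which loads the MCM helicase on origins, went the other way. It read 7.57 with LPS and 6.48 without on the arrays labelled Bid-/-, against 6.97 with LPS and 6.48 without in WT. The control arrays were equal and both LPS arrays higher, by 1.09 under the Bid-/- label and 0.49 in WT (limma adjusted p = 0.100). Its window holds the same TTTGGCGC spelling as those of Mcm3 and Mcm6. Tyms, the thymidylate synthase, read 5.71 and 5.20 on the arrays labelled Bid-/- and 5.82 and 5.37 in WT (LPS, then control), higher with LPS by 0.51 and 0.45 (limma adjusted p = 0.0852). Pcna, the sliding clamp of the replication fork, read 9.94 and 9.73 on the arrays labelled Bid-/- and 10.33 and 9.90 in WT, and its second probe set gave values within 0.01 of these. Tk1, the cytosolic thymidine kinase, differed by -0.01 and 0.04, and its second probe set read 3.61 to 3.83, below the floor on all 4 arrays.

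Of the genes of mitotic entry and exit, 0 of 8 were called for LPS in the additive fit. Over all genes 1.68% were called higher and 1.56% lower, and 0 of 8 lies near these shares. The median of the 8 tested on the arrays labelled Bid-/- was -0.33, with 7 of 8 below 0, against 6607 of 10995 over all genes. The median of the 6 tested in WT was -0.015, with 3 below 0 and 3 above. On the arrays labelled Bid-/-, Top2a and Cdc20 passed the floor only without LPS and Mki67 only with LPS. In WT, Plk1 and Cdc20 passed it only with LPS. The floor thus set the direction of these genes there. Top2a and Mki67 were not tested in WT, so the medians cover different genes. Aurkb, the kinase of the chromosomal passenger complex, read 5.05 with LPS and 5.53 without on the arrays labelled Bid-/-, against 4.91 with LPS and 5.39 without in WT. Both differences were -0.48 (limma adjusted p = 0.0801). Aurka, the spindle pole kinase, read 4.71 and 5.10 on the arrays labelled Bid-/- and 4.41 and 4.73 in WT (LPS, then control), also lower with LPS under both labels (limma adjusted p = 0.119). Cdk1, the kinase that drives mitosis, read 5.38 with LPS and 5.74 without on the arrays labelled Bid-/-, against 5.77 with LPS and 5.73 without in WT. For Cdk1 the array labelled Bid-/- with LPS was the low one and the other 3 were within 0.04 of each other.

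Mki67, which encodes the proliferation antigen Ki-67, ran against the group. It read 4.48 with LPS and 3.74 without on the arrays labelled Bid-/-, against 4.19 with LPS and 3.56 without in WT. Only the LPS array labelled Bid-/-, where it was highest, reached the floor, so its place among the higher genes is partly set by the floor. Its LPS differences were 0.74 under the Bid-/- label and 0.63 in WT, where both arrays were below the floor (limma adjusted p = 0.0536). Top2a, the topoisomerase that untangles sister chromatids, read 4.05 and 4.35 on the arrays labelled Bid-/- and 4.14 and 4.15 in WT (LPS, then control), and it too reached the floor on 1 array.

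In the spindle and checkpoint group 3 of 12 genes could be tested, and Mad2l1 was the one called. Mad2l1, which encodes the MAD2 protein that holds the anaphase-promoting complex until chromosomes are attached, read 4.82 with LPS and 5.57 without on the arrays labelled Bid-/-, against 4.56 with LPS and 5.47 without in WT. Both LPS arrays were below both control arrays, by 0.75 and 0.91. In the additive fit it fell by 0.83 (SE 0.11, limma adjusted p = 0.0490), and the call was lost in the same 2 of 8 alternatives as that of Rrm1. Tpx2, which activates Aurora A on spindle microtubules, read 4.08 and 4.62 on the arrays labelled Bid-/- and 3.89 and 4.36 in WT (LPS, then control). Its LPS arrays were the lower ones and below the floor, with differences of -0.54 and -0.47 (limma adjusted p = 0.0708). Kif20a, a kinesin of cytokinesis, differed by -0.10 under the Bid-/- label and 0.27 in WT. Kif20a passed the floor only without LPS under the Bid-/- label, at 4.34, and only with LPS in WT, at 4.37. Its directions were thus set by the floor.

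**Figure D3:**
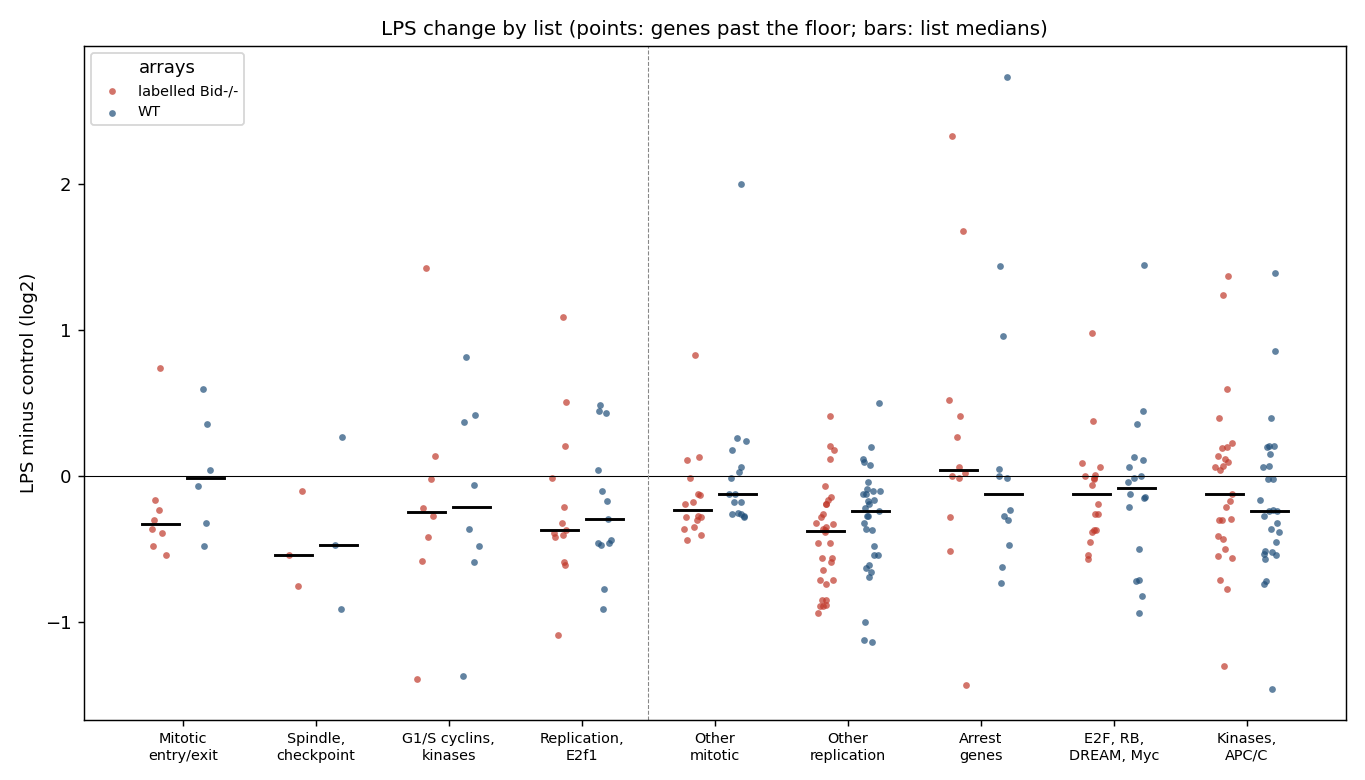
LPS minus control on the log2 scale by list, with arrays labelled Bid-/- at the left and WT at the right of each list; points are genes past the floor, bars are list medians, and the dashed line divides the 4 groups of cell cycle genes described above from 5 further lists of the same pathway. The replication lists lie mostly below 0, and single genes such as Gadd45a and Cks2 stand far above their lists.

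Other genes of the same pathway were taken from 5 lists chosen by function. Of 32 tested other replication and S phase genes, 28 were lower with LPS in the additive fit, against 6580 of 11326 over all genes. Their median was -0.37 against -0.065 over all genes, and 2 passed as lower, beside 1.56% of all genes. Rfc4, a subunit of the clamp loader, read 4.87 with LPS and 5.81 without on the arrays labelled Bid-/-, against 4.70 with LPS and 5.82 without in WT; it fell by 1.03 (SE 0.11, limma adjusted p = 0.0387). Gins1, a subunit of the fork helicase, fell by 0.82 (limma adjusted p = 0.0441), but it passed the floor only on 1 control array, so its direction is partly set by the floor. The origin recognition subunit Orc5 had a mean LPS difference of -0.94 (limma adjusted p = 0.0590), while Uhrf1, a factor of maintenance methylation, and Rpa3, a single-strand binding subunit, were at the upper end at 0.34 and 0.205. Of 16 tested other mitotic genes, 0 passed, beside 1.68% of all genes as higher and 1.56% as lower. Cks2, a CDK-binding subunit, was the highest of these, reading 5.72 with LPS and 4.89 without on the arrays labelled Bid-/-, against 6.89 with LPS and 4.89 without in WT (limma adjusted p = 0.0822). The kinetochore gene Zwint followed at 0.195, and the condensin subunit Smc4 and the spindle protein Tacc3 were lowest at -0.31 and -0.305.

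Genes of arrest and stress checkpoints held the largest LPS change of the 5 lists. Among 12 tested CDK inhibitors and p53-linked arrest genes, 2 rose and 0 fell, beside 1.68% of all genes that rose and 1.56% that fell. The median LPS difference of the 12 in the fit was -0.0025, with 6 above 0 and 6 below. Gadd45a, a stress-induced gene of growth arrest, read 8.76 with LPS and 6.43 without on the arrays labelled Bid-/-, against 8.86 with LPS and 6.12 without in WT, and rose by 2.54 (SE 0.17, limma adjusted p = 0.0265). Its relative Gadd45b rose by 1.56 (SE 0.15, limma adjusted p = 0.0327). Both LPS arrays were far above both control arrays in each gene. The third family member, Gadd45g, had a mean LPS difference of -1.08 (limma adjusted p = 0.0694), and the p53 target Ccng1 one of -0.49. Of 28 tested other kinases, phosphatases and subunits of the anaphase-promoting complex, 1 rose and 1 fell, beside the same shares of all genes. Chek2, the DNA damage checkpoint kinase, read 4.49 with LPS and 5.79 without on the arrays labelled Bid-/-, against 4.49 with LPS and 5.95 without in WT, and fell by 1.38 (limma adjusted p = 0.0283). The Polo-like kinase Plk3, known for stress responses, rose by 1.38 (limma adjusted p = 0.0319). Its relative Plk2 had a mean LPS difference of 1.05 (limma adjusted p = 0.0589), and Cdc23, a subunit of the anaphase-promoting complex, one of -0.755 (limma adjusted p = 0.0578). Of 18 tested pocket proteins, other E2F and DP factors, DREAM subunits and Myc family genes, 0 passed, beside the same shares of all genes. Myc read 6.37 and 5.39 on the arrays labelled Bid-/- and 7.07 and 5.62 in WT (LPS, then control), with a limma adjusted p of 0.0505. Of the others in that list, E2f5 was at 0.27, the pocket protein gene Rbl1 at -0.635 and the repressor E2f6 at -0.74 by mean LPS difference.

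The second question was whether cell cycle genes differed between the genotype labels. Without LPS, 0 of 31 tested members differed by 1.5-fold in either direction, beside 1.45% of all genes higher and 0.44% lower on the array labelled Bid-/-. Their median difference was 0.09, with 20 of 31 above 0, against 0.01 over all genes; with a floor 1 log2 unit higher it was 0.02, against 0.01. The 7 tested genes of mitotic entry and exit were all above 0 on the array labelled Bid-/-, by 0.01 to 0.58, with a median of 0.16. Over all genes, 5632 of 10909 were above 0. Of the 7, Plk1 had the largest difference, 0.58, just short of the threshold. Plk1, Top2a and Cdc20 passed the floor here only on the array labelled Bid-/-, at 4.82, 4.35 and 4.32. In WT they read 4.24, 4.15 and 4.16, so their direction was set by the floor. The fibroblast and mural cell markers were also higher on that array (8 of 8, median 0.66); their part in the result was not tested.

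With LPS, 1 of 30 tested members was at least 1.5-fold higher on the array labelled Bid-/- (3.33%, against 4.69% of all genes) and 0 were lower (0.0%, against 6.07%). The higher one was Cdt1, at 7.57 on the array labelled Bid-/- against 6.97 in WT, a difference of 0.60 that fell short of 1.5-fold after quantile normalization. Lowest were Plk1 at -0.56, Cdc20 at -0.43, and Cdk1 and Pcna at -0.39 each. The median was -0.025, with 14 above 0 and 16 below, against 0.01 over all genes, with 5625 above 0 and 5274 below. In the additive fit, 0 of 32 members and 0 of 11326 genes passed for the label (0.0% of all genes in each direction). After removal of an intensity trend 286 genes passed for the label, and still 0 members. At an unadjusted limma p under 0.05 there was 1 member, Aurka, with 6.26% of all genes. Aurka was higher on both arrays labelled Bid-/-, by 0.30 with LPS and 0.37 without.

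**Figure D4:**
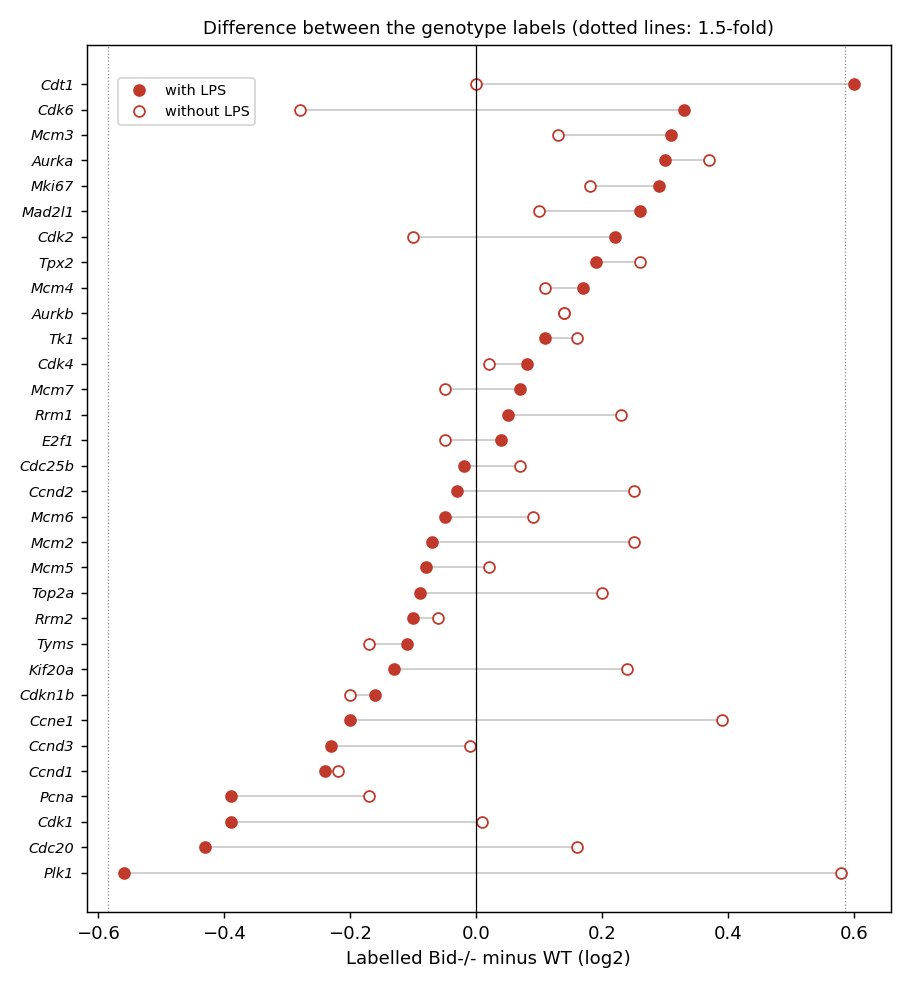
Labelled Bid-/- minus WT on the log2 scale for each of the 32 cell cycle genes past the floor, with LPS (filled) and without (open), ordered by the difference with LPS; dotted lines mark 1.5-fold. Cdt1 is past the line with LPS alone, and Plk1 is at -0.56 with LPS and 0.58 without.

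The third comparison set the LPS change under the Bid-/- label against that in WT, for which 4 single arrays give no test. The difference of LPS change was at least 1.5-fold positive for 2 of 32 members (6.25%, against 3.26% of all genes) and negative for 3 (9.38%, against 6.06%). The positive ones were Cdk6 and Cdt1, whose LPS differences were higher by 0.61 and 0.60 on the arrays labelled Bid-/-. Negative were Plk1, Ccne1 and Cdc20. Plk1, the Polo kinase of mitotic entry, read 4.28 with LPS and 4.82 without on the arrays labelled Bid-/-, against 4.84 with LPS and 4.24 without in WT. It was thus lower with LPS by 0.54 under the Bid-/- label and higher by 0.60 in WT. Ccne1, the cyclin that activates CDK2 at the start of S phase, read 5.15 and 5.37 on the arrays labelled Bid-/- and 5.35 and 4.98 in WT (LPS, then control). Cdc20, the activator of the anaphase-promoting complex, read 4.09 and 4.32 on the arrays labelled Bid-/- and 4.52 and 4.16 in WT (LPS, then control). In all 3 genes the WT control array and the LPS array labelled Bid-/- were the low ones. Plk1 and Cdc20 read close to the floor. Cdc20 reached it on 2 arrays, those where it was high. Plk1 reached it on 3, and only narrowly on the LPS array labelled Bid-/-, at 4.28. Ccne1 was above it on all 4.

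Plk1 and Cdc20 share TTTGAA and CCAAT in the windows printed above, while the Ccne1 window held no match to a searched motif. In the mitosis entry and exit group, 70.0% of windows held TTTGAA and 90.0% held CCAAT. The Aurka window held both, and Aurka was lower with LPS under both labels. A link of these elements to the LPS change was not tested. By median, fibroblast and mural cell markers moved in the same directions as Plk1, Ccne1 and Cdc20. Their median LPS difference was -0.27 on the arrays labelled Bid-/- (3 of 8 above 0) and 0.76 in WT (8 of 8 above 0). Their mean was low only on the WT control array, at 5.15, and was 5.84 on the LPS array labelled Bid-/-. Their part in the result was not tested. After quantile normalization or removal of an intensity trend, 1 member in place of 3 was past 1.5-fold in this direction. Over the 32 members the median difference of LPS change was -0.06, against 0.00 over all genes, with 12 members above 0 and 19 below. Over all genes, 5594 were above 0 and 5563 below.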

How the data were processed

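RNA of microglial cells was measured on 4 arrays, 1 per group. The table the authors deposited gives 28944 probe sets a reading per array. Per the submitters' processing notes the tools were Affymetrix Expression Console, RMA and Partek 6.2, in no stated order. The deposited readings, with 2 decimals and a range of 1.4 to 13.5, were treated as log2 expression; array medians were 4.24 to 4.28. No log base is stated, and every fold depends on this reading. RMA as usually run equalises arrays at the level of single probes; the deposited arrays still differed slightly, and a shift common to all genes may have been removed. The number of arrays limits the precision.

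The platform annotation named 1 gene for 21789 probe sets, which were used, more than 1 for 1621, and no gene for 5534. Of several probe sets of a gene (999 genes), the one with the highest mean was kept, leaving 19938 genes, of which 11326 reached the floor on at least 1 array. The additive model was fitted in R 4.3.3 by limma 3.58.1 (lmFit, eBayes with an intensity trend, Benjamini-Hochberg, threshold 0.05) and tested on simulated data. It has 1 residual degree of freedom. Rounding gave 169 genes a residual of 0, 1 of them a member, and the prior degrees of freedom were 3.07. Nothing says whether arrays came from separate cultures, so p-values measure only the spread between these arrays, which may be technical. Counts of 1.5-fold differences and medians were computed in Python 3.11.15 with pandas 2.3.3, and trends were removed by lowess in statsmodels 0.14.6. Comparisons that share an array are not independent of each other.

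All 50 members are named or counted by role; those at least 1.5-fold different or called are given in full. Of each further list, genes called are given, with the 2 highest and 2 lowest by mean LPS change. The members, lists and tests were chosen with earlier results of these data known, so their direction is not independent evidence. Alternatives were no floor, a floor 1 log2 unit higher, quantile normalization, removal of intensity and gene span trends, the mean of a gene's probe sets, a 2-fold rule, eBayes without a trend, and noise within the rounding. Scanner values were not used here.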

Additional observations from a re-analysis of the deposited data

Results flagged for a closer look

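The cell cycle genes Plk1, Ccne1 and Cdc20 moved in opposite directions with LPS under the 2 genotype labels, each measured on 1 array per group, and the difference was not tested. The LPS change of Plk1 under the Bid-/- label, less that in WT, was -1.14 on the log2 scale. For Ccne1 and for Cdc20 the same difference was -0.59, just past 1.5-fold. Plk1 and Cdc20 read close to the floor, which Plk1 reached on 3 arrays and Cdc20 on 2. With a floor 1 log2 unit higher neither gene was compared, and 1 negative member was left.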

How the results depend on the processing

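No paired analysis was possible because the labels give no replicate numbers and each group is 1 array. The counts and medians not named here kept their direction, and counts stayed within 1.5 times the value reported. With no floor, the median LPS difference of the members was -0.22 on the arrays labelled Bid-/- and -0.08 in WT, 1 member was at least 1.5-fold higher on the array labelled Bid-/- without LPS, 1 was lower there with LPS, the median of labelled Bid-/- minus WT with LPS turned to 0.04 (reported as -0.025), and the additive fit called 0 members. With the higher floor, the WT median was -0.44, WT had 1 higher member, that label median turned to 0.005, the difference of LPS change had 1 negative member and a median turned to 0.02 (reported as -0.06), and the fit called 1 higher. Quantile normalization left 3 lower members with LPS under the Bid-/- label, 0 members higher than WT with LPS and 1 negative difference of LPS change; the fit called 4 higher and 6 lower. Removing an intensity trend left 3 lower under the Bid-/- label, 1 higher in WT, 1 higher than WT without LPS, 1 negative difference of LPS change and a label median with LPS of 0.0285; the fit called 4 higher and 8 lower. Removing the gene span trend too gave 3, 1 and 1 for the lower, label and negative counts, medians of -0.2233 (LPS change, labelled Bid-/-), 0.0154 (label with LPS) and 0.009 (difference of LPS change), and 4 higher and 7 lower calls. Noise within the rounding gave 4 higher and 7 lower calls, and eBayes without a trend 1 lower. At 2-fold, 2 members were lower with LPS under the Bid-/- label, 1 was lower and 0 higher in WT, 0 were higher than WT with LPS, and the difference of LPS change left 0 positive and 1 negative. The cause of these changes was not tested. Over all genes, the fit called 190 higher and 177 lower with LPS as reported, 0 with no floor, and 369 and 522 with the higher floor. It called 810 and 1118 after quantile normalization, 1068 and 1391 with an intensity trend removed, and 1192 and 1339 with both trends removed. With rounding noise there were 609 and 1175, and with eBayes without a trend 153 and 92.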
